A study of Homo sapiens with 6 samples.

Results

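The glycolytic enzyme genes described here were ENO1, LDHA, GAPDH, PGK1, ALDOA, PKM, TPI1, GPI, PGAM1 and PFKL. Their rows were found by Ensembl identifier in each count table, and all 10 were present among the 57500 genes listed. The counts came from RNA of mitochondrial preparations of HepG2, a human hepatocellular carcinoma line with wild-type genotype per the labels. The cells received DMSO alone (control, 0 µM GenX), 10 µM GenX or 100 µM GenX for 48 h, with 2 libraries per dose and 6 in all. GenX is the trade name of a perfluoroalkyl ether acid used in making fluoropolymers. Mitochondria were isolated with a kit, and total RNA was depleted of ribosomal RNA and made into stranded libraries. The labels put all 6 libraries in a single batch. Whether the 2 libraries of a dose are separate cultures is not stated, so each p-value reflects the spread of these libraries alone, which may be technical.

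Glycolysis splits glucose into pyruvate in the cytosol and yields ATP and NADH. GPI, PFKL, ALDOA and TPI1 act in the stretch that turns glucose 6-phosphate into triose phosphates. GAPDH, PGK1, PGAM1, ENO1 and PKM act in the stretch that regains ATP, and LDHA turns pyruvate into lactate and restores NAD+. All 10 genes are encoded in the nucleus and their proteins work mainly outside mitochondria. Many of the genes are known targets of the hypoxia-inducible factors, and several have numerous processed pseudogenes, copies of the mRNA inserted elsewhere in the genome.

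The libraries differed in depth and in the kinds of RNA they held. The tables held 240683 and 60854 counts in the control libraries, 43556 and 29350 at 10 µM, and 2141282 and 1338397 at 100 µM. Genes of mitochondrial DNA took 4.35% and 10.4% of them in the control libraries, 43.7% and 61.1% at 10 µM, and 3.59% and 3.32% at 100 µM. Levels are therefore given mainly as counts scaled to the nuclear-gene total of the library (nuclear CPM). The nuclear-retained RNA MALAT1 made up 14.1% and 5.15% of nuclear counts in the control libraries, 0.0694% and 0.114% at 10 µM, and 2.99% and 2.69% at 100 µM. Of 10 hepatocyte markers, APOA2 was the most abundant, while AFP, TTR and FGB had 0 counts in both controls. Of 7 markers of other cell types, PTPRC and CD68 were at 0 in every library. COL1A1 had the most counts of the 7. These were 50 and 6 in the control libraries, 6 and 6 at 10 µM, and 67 and 42 at 100 µM. The list together took 0.0226% and 0.0220% of nuclear counts in the control libraries. It took 0.0367% and 0.0789% at 10 µM, and 0.00339% and 0.00348% at 100 µM. What part these differences in depth and RNA make-up had in the results below was not tested. In such bulk preparations, less cytosolic RNA in the preparation and less of an mRNA per cell cannot be told apart.

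The 10 genes together were scarce at 10 µM and abundant at 100 µM. They held 1801 and 936 counts in the control libraries, 35 and 18 at 10 µM, and 45473 and 25708 at 100 µM. As a share of nuclear counts this was 0.782% (95% exact binomial interval 0.747 to 0.819) and 1.72% (1.61 to 1.83) in the control libraries. In the 10 µM libraries it was 0.143% (0.0995 to 0.199) and 0.158% (0.0936 to 0.249). In the 100 µM libraries it was 2.20% (2.18 to 2.22) and 1.99% (1.96 to 2.01). These intervals cover counting error only. Both 10 µM libraries lay below both controls, and both 100 µM libraries lay above them. The mean share was 1.25% ± 0.661 in control cells, 0.150% ± 0.0106 at 10 µM and 2.10% ± 0.153 at 100 µM (SD, n = 2 each). At the pooled control share, the nuclear counts of the 10 µM libraries would have held 345 counts on these genes, where 53 were counted. The control libraries differed from each other by more than the 100 µM libraries did. On the log2 scale the mean shares differed by -2.95 between 10 µM and control (SD 0.809). They differed by 0.85 between 100 µM and control (SD 0.809) and by 3.80 between 100 µM and 10 µM (SD 0.146). Each SD is the spread of a difference between single libraries of the 2 doses, not the error of the mean difference. The difference of 100 µM from control was 0.28 without control 1 and 1.42 without control 2.

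**Figure D1:**
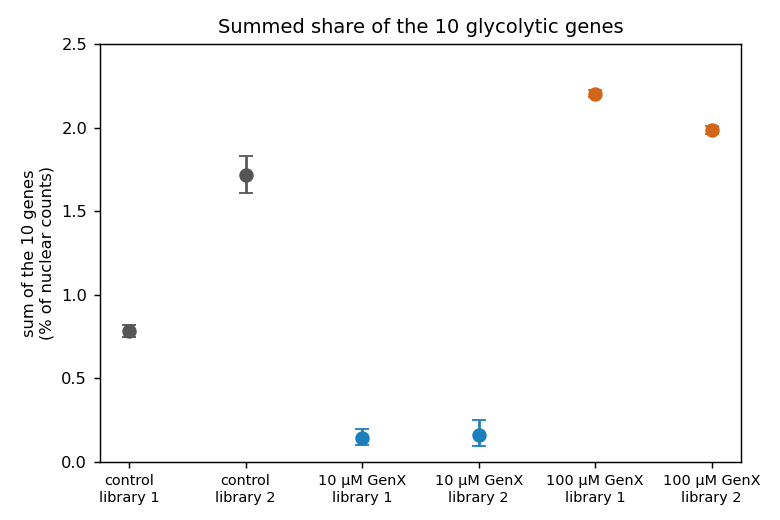
Summed counts of the 10 glycolytic genes as a percentage of nuclear counts (vertical axis), 1 point per library with its 95% exact binomial interval. The 10 µM libraries lie at 0.143% and 0.158%, below the controls at 0.782% and 1.72%, and the 100 µM libraries at 2.20% and 1.99%.

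Among the enzymes of the first stretch, ALDOA, the muscle-type aldolase that cleaves fructose 1,6-bisphosphate (chr16:30053090-30070457, plus strand, GRCh38), was the most abundant. It had 1251 and 6789 nuclear CPM in the control libraries, 735 and 438 at 10 µM (18 and 5 counts), and 5487 and 4646 at 100 µM. The control values spanned a 5.43-fold range, and both 100 µM values fell inside it. TPI1, which interconverts the triose phosphates (chr12:6867119-6870948, plus strand), had 782 and 3670 nuclear CPM in the control libraries, 40.8 and 351 at 10 µM (1 and 4 counts), and 919 and 930 at 100 µM. The 100 µM libraries nearly coincided and lay within the 4.69-fold range of the controls. GPI, which turns glucose 6-phosphate into fructose 6-phosphate (chr19:34359480-34402156, plus strand), had 130 and 1706 nuclear CPM in the control libraries, 81.6 and 0 at 10 µM (2 and 0 counts), and 378 and 265 at 100 µM. Its controls were 13.1-fold apart, the widest gap among the 10 genes. PFKL, the liver form of phosphofructokinase (chr21:44300051-44327376, plus strand), had 7 and 8 counts in the control libraries, 0 and 0 at 10 µM, and 66 and 159 at 100 µM. Up to 122 and 263 nuclear CPM (3 counts) could go with a count of 0 in the 10 µM libraries, more than the mean of 88.6 nuclear CPM in the control libraries. The pooled control share would have given 1.89 counts there. A lower level of PFKL at 10 µM was therefore not detectable at this depth.

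In the second stretch, GAPDH, which makes 1,3-bisphosphoglycerate and NADH (chr12:6533927-6538374, plus strand), varied least between the controls. It had 1151 and 1376 nuclear CPM in the control libraries, 122 and 263 at 10 µM (3 and 3 counts), and 2630 and 2984 at 100 µM. The 3 doses did not overlap, with 10 µM lowest and 100 µM highest. PGK1, which makes ATP from 1,3-bisphosphoglycerate (chrX:78065188-78129296, plus strand), had 2259 and 349 nuclear CPM in the control libraries, 122 and 0 at 10 µM (3 and 0 counts), and 2098 and 2188 at 100 µM. Control 1 alone exceeded both 100 µM libraries. PGAM1, a phosphoglycerate mutase (chr10:97426160-97433441, plus strand), had 34.8 and 18.3 nuclear CPM in the control libraries (8 and 1 counts), 0 and 0 at 10 µM, and 134 and 164 at 100 µM. As with PFKL, the control level lay under what a count of 0 allowed at 10 µM. ENO1, the enolase that makes phosphoenolpyruvate (chr1:8861002-8879249, minus strand), had 1034 and 1945 nuclear CPM in the control libraries, 122 and 175 at 10 µM (3 and 2 counts), and 4515 and 4122 at 100 µM. Its doses did not overlap either. PKM, pyruvate kinase (chr15:72199029-72231822, minus strand), had 669 and 294 nuclear CPM in the control libraries, 81.6 and 87.7 at 10 µM (2 and 1 counts), and 975 and 1080 at 100 µM, again without overlap.

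LDHA, the lactate dehydrogenase subunit that favours lactate production (chr11:18394388-18408425, plus strand), had 482 and 881 nuclear CPM in the control libraries, 122 and 263 at 10 µM (3 and 3 counts), and 4857 and 3365 at 100 µM. Its pooled 100 µM to control ratio of 7.67 (95% counting interval 6.56 to 9.02) was the largest of the 10. Relative to all counts, mitochondrial ones included, LDHA had 461 and 789 CPM in the control libraries, 68.9 and 102 at 10 µM, and 4683 and 3253 at 100 µM, and the dose order was unchanged.

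**Figure D2:**
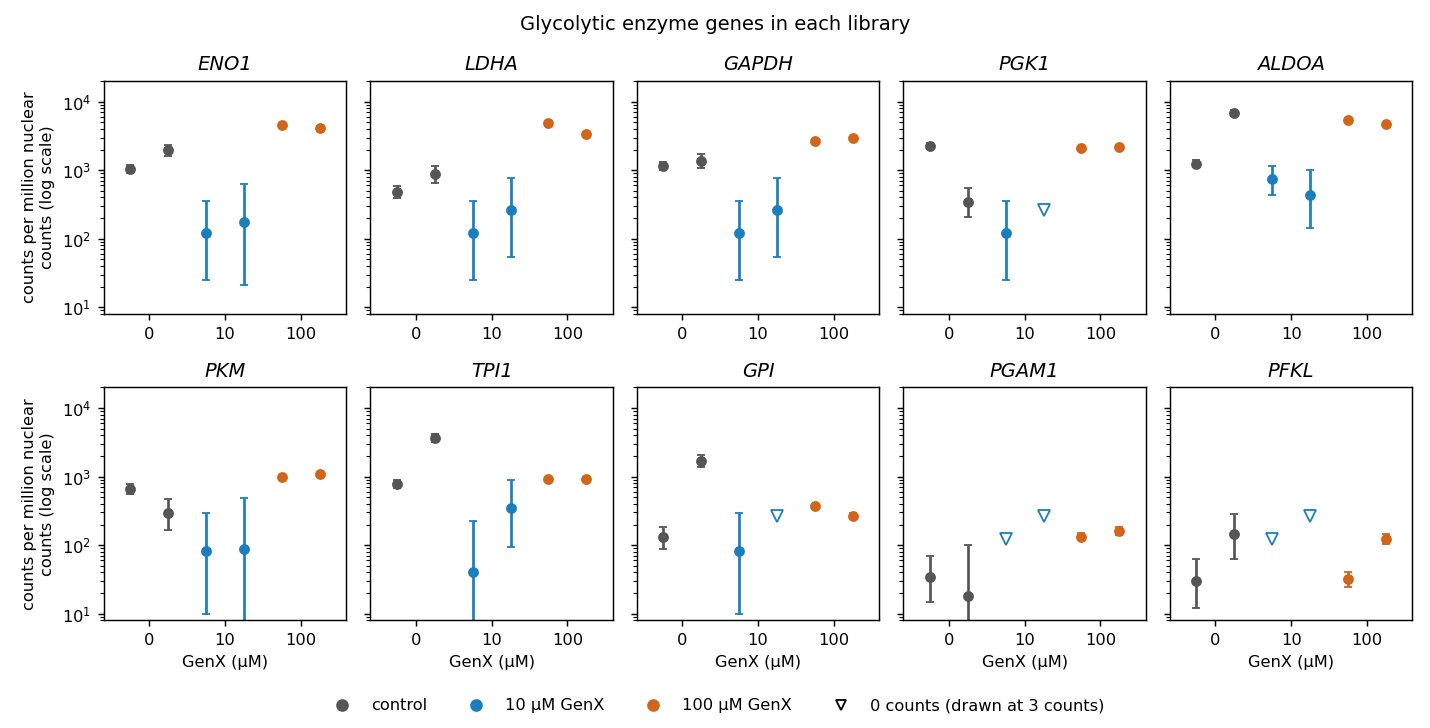
Level of each of the 10 genes in nuclear CPM (log axis) against GenX dose, 1 point per library with its 95% exact binomial interval, and open triangles at the level of 3 counts where a library had 0. The point values of ENO1, LDHA, GAPDH and PKM separate the 3 doses. For LDHA and PKM, intervals at 10 µM and in the controls overlap. The controls of GPI are 13.1-fold apart.

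How the members ranked among themselves was compared per length, as counts per kilobase of exons at nuclear CPM scale (nuclear RPKM). At 100 µM, ENO1 led with 1091 ± 70.2 nuclear RPKM (SD, n = 2). GAPDH at 942 ± 84.0, ALDOA at 823 ± 96.7 and LDHA at 662 ± 170 nuclear RPKM followed, and each overlapped the next of these. PGK1 (396 ± 11.8), TPI1 (343 ± 2.92), PKM (120 ± 8.69), PGAM1 (57.9 ± 8.30), GPI (35.3 ± 8.79) and PFKL (8.67 ± 7.20) came next without overlap between neighbours. In the controls TPI1 (824 ± 756) and ALDOA (653 ± 636) led the mean nuclear RPKM. Each neighbour overlapped there except PKM at 56.2 ± 31.0 and PGAM1 at 10.3 ± 4.52, so the spread between the 2 libraries left the rest of that order unresolved. At 10 µM the order rested on 0 to 23 pooled counts per gene. By raw counts among protein-coding genes, ALDOA ranked 5 and 6, ENO1 9 and 7, LDHA 8 and 11, and GAPDH 18 and 15 in the 100 µM libraries. In the controls ALDOA ranked 91 and 4, ENO1 118 and 84, LDHA 362 and 234, and GAPDH 102 and 139.

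The make-up of the sum also differed between libraries. PGK1 took 28.9% of the 10 genes' counts in control 1 and 2.03% in control 2, whereas ALDOA took 16.0% and 39.5%, and TPI1 9.99% and 21.4%. At 100 µM the 2 libraries were alike, with 24.9% and 23.4% for ALDOA, 20.5% and 20.7% for ENO1, and 22.1% and 16.9% for LDHA. ENO1 took 13.2% and 11.3% in the control libraries and LDHA 6.16% and 5.13%, so both held larger shares of the sum at 100 µM. The 10 µM shares came from 35 and 18 counts, of which ALDOA took 51.4% and 27.8%.

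**Figure D3:**
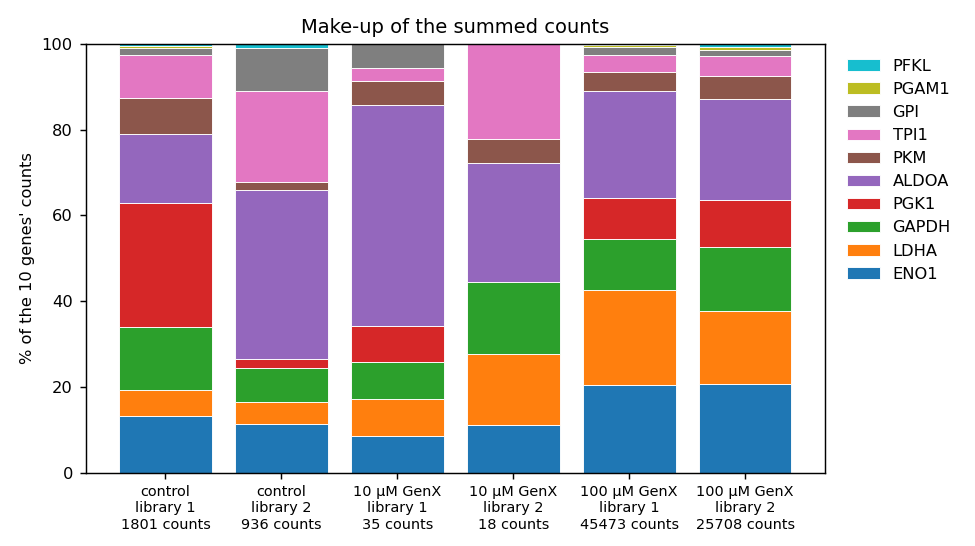
Percentage of the 10 genes' summed counts taken by each gene (stacked bars, 1 per library, with the summed counts below). PGK1 fills 28.9% of control 1 and 2.03% of control 2, while the 100 µM bars nearly match.

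At 10 µM against control, edgeR's quasi-likelihood test with Benjamini-Hochberg adjustment called 0 of the 10 genes at 0.05, beside 19 of all 3180 genes tested (0.597%). Unadjusted p was under 0.05 for 8 members and for 28.1% of all genes. All 10 fitted log2 fold changes lay below 0. ENO1 had the smallest adjusted p, with a log2 fold change of -4.49 ± 1.04 (SE, n = 2 per group; adjusted p = 0.0926). GAPDH had -4.03 ± 1.10 (adjusted p = 0.120), ALDOA -3.65 ± 0.98 (0.120), TPI1 -4.85 ± 1.34 (0.120) and LDHA -3.08 ± 1.05 (0.146). The member median was -4.67, or -3.93 with PGAM1 and PFKL, at 0 in both 10 µM libraries, set to the level of 3 counts per library. The median of all tested genes was -3.17, and LDHA alone among the members lay above it. That placing turned with single libraries. The median of all genes was -6.04 without 10 µM library 1 and -5.09 without 10 µM library 2, with 6 members above it in each, and 0.00 without control 1 and -1.68 without control 2, with 0 members above it. In pooled nuclear counts the control to 10 µM ratio was 22.7 for PGK1 (95% counting interval 7.71 to 110, 3 counts at 10 µM), 7.15 for PKM (2.40 to 35.0, 3 counts) and 7.76 for GPI (2.10 to 64.8, 2 counts). These values depended on which control was used. For PGK1 the ratio was 27.0 with control 1 alone and 4.17 with control 2 alone, for PKM 8.01 and 3.51, and for GPI 2.34 (0.594 to 20.2) and 30.6. Both 10 µM libraries lay below both controls in nuclear CPM for all 10 members and for 32.0% of the tested nuclear genes. PGAM1 and PFKL met that only through counts of 0 that their depth cannot tell from the control level.

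The count of members called at 10 µM turned on the tool and on single libraries. DESeq2's Wald test on the same filtered genes called 8 of the 10 lower, all but PGAM1 and PFKL, beside 12.1% of all genes called lower. Without a filter on low counts it called 0 members and 0.0764% of 19632 genes. The quasi-likelihood test called 6 of 8 tested members lower without control 1, beside 11.8% of all genes, and 7 of 10 without control 2, beside 11.8%. ENO1 was below 0 in each of the fits, with log2 fold changes between -4.98 and -4.57 when a library was left out.

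**Figure D4:**
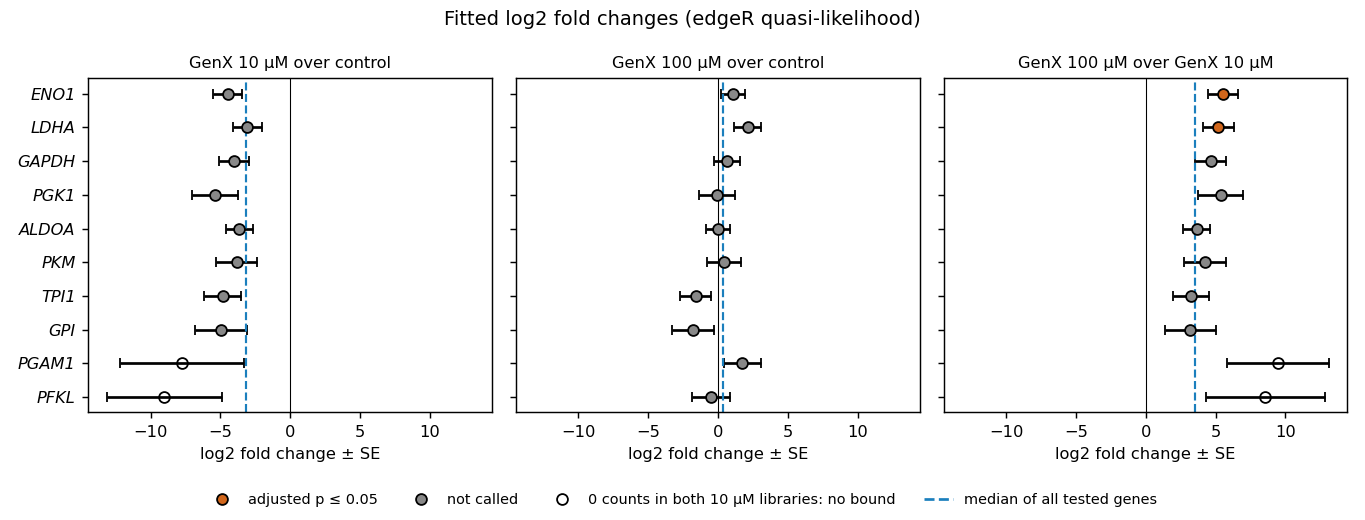
Fitted log2 fold changes (horizontal axis, ± SE) of the 10 genes in the 3 comparisons, 2 libraries per dose, with the median of all tested genes as a dashed line. ENO1 and LDHA at 100 µM over 10 µM are the points with an adjusted p at or under 0.05, and open points had 0 counts in both 10 µM libraries, so their fitted values are no bound.

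At 100 µM against control, edgeR's quasi-likelihood test called 0 members and 0 of all genes (0.0%), where 1 member and 575 genes had an unadjusted p under 0.05. DESeq2's Wald test called 244 filtered genes and 0 members. LDHA had the largest fitted change, with a log2 fold change of 2.12 ± 0.95 (unadjusted p = 0.0479, adjusted p = 0.272), and it passed without control 2, at 2.48 (adjusted p = 0.0498; 0.0498 to 1.00 over its alternatives), where 0.48% of all genes were called higher. The values were 1.73 ± 1.33 for PGAM1, 1.07 ± 0.86 for ENO1, 0.62 ± 0.93 for GAPDH and 0.41 ± 1.21 for PKM. TPI1 had -1.61 ± 1.12 and GPI -1.78 ± 1.51, both below 0. PGK1 (-0.06 ± 1.28), ALDOA (0.00 ± 0.87) and PFKL (-0.48 ± 1.35) lay close to 0, and PGK1 moved between -0.69 and 2.98 with a library left out. The member median was 0.21 beside 0.36 for all genes, which became 2.04 without control 1, 1.39 without control 2 and 0.00 without either 100 µM library. Both 100 µM libraries lay above both controls in nuclear CPM for ENO1, LDHA, GAPDH, PKM and PGAM1. That is 5 of 10 members, beside 48.3% of the tested nuclear genes. PGAM1 passed the filter only through its 100 µM libraries (129 and 158 CPM, beside 33.2 and 16.4 in the controls). Its place above the controls and its fitted 1.73 therefore come from the libraries that let it in.

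At 100 µM against 10 µM, ENO1 and LDHA were higher, 2 of the 10 members, beside 0.755% of all tested genes called higher. ENO1 had 4319 ± 278 nuclear CPM at 100 µM and 149 ± 37.4 at 10 µM, a log2 fold change of 5.56 ± 1.08 (edgeR's quasi-likelihood test, adjusted p = 0.0301). LDHA had 4111 ± 1055 nuclear CPM at 100 µM and 193 ± 99.4 at 10 µM, a log2 fold change of 5.20 ± 1.13 (adjusted p = 0.0408). GAPDH (4.65 ± 1.12, adjusted p = 0.0540) and ALDOA (3.65 ± 0.98, adjusted p = 0.0754) missed the threshold. PGK1 had 5.36 ± 1.64 (0.112), PKM 4.24 ± 1.48, TPI1 3.24 ± 1.27 and GPI 3.19 ± 1.81. The 100 µM levels of PGAM1 and PFKL reached 164 and 123 nuclear CPM. A count of 0 allowed 263 nuclear CPM in 10 µM library 2 and 122 in library 1. Those levels lay under the first limit, while both PGAM1 values (134 and 164) lay above the second. With both 10 µM libraries pooled, the 100 µM level was 0.870 times the limit for PGAM1 and 0.401 times for PFKL, so no fold is given. The member median was 4.92, or 3.94 with these genes at their limit, and the median of all genes was 3.52, with 8 members above it. Without 10 µM library 1 the median of all genes was 7.72, with 4 members above it, and without 10 µM library 2 it was 7.42, with 2 above. Both 100 µM libraries lay above both 10 µM libraries in nuclear CPM for all 10 members and for 63.8% of the tested nuclear genes. For PGAM1 this again came from the libraries that let it pass the filter. The 10 µM libraries entered this comparison and the one with the controls, so the 2 sets of values share them.

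The calls of ENO1 and LDHA rested on 5 and 6 counts at 10 µM. Neither passed without 10 µM library 1, without 100 µM library 1 or without 100 µM library 2, while 8 of 8 tested members passed without control 1 and 8 of 10 without control 2. Calls rose over all genes in those fits, to 28.6% called higher without control 1 and 13.5% without control 2. Adjusted p for ENO1 was 0.0598 without 10 µM library 1, 0.322 without 100 µM library 1 and 0.189 without 100 µM library 2, within a range of 1.7e-07 to 0.322 over its alternatives. For LDHA these were 0.100, 0.504 and 0.285, within 6.91e-07 to 0.504. With DESeq2 size factors in place of TMM scaling 0 members passed, beside 0.189% of all genes called higher. DESeq2's Wald test called ENO1, LDHA and GAPDH higher, beside 5.19% of all genes. The log2 fold change stayed at 4.56 or more for ENO1 and at about 4.22 or more for LDHA in every alternative run.

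The DNA before the transcription starts of LDHA and PGK1 is shown because these genes are textbook targets of the hypoxia-inducible factors, whose core site is ACGTG or GCGTG. RefSeq entries of GRCh38.p14 gave 14 start sites for the 10 genes, and 250 bases before each were searched on both strands. Matches may overlap, since CACGTG reads as ACGTG on both strands. A match was found in 11 of the 14 member promoters, which belong to 8 of the 10 genes, and in 43.2% of all 35116 promoters in the table. LDHA had 5 matches before its first start, ENO1 2, PGK1 3, and PGAM1 and PKM 0. Printed in lower case, 5′ to 3′ on the gene's strand, with the matches in capitals, is part of the 250 bases. It runs up to the first exon base met in the deposited gene models. For LDHA this is chr11:18394313-18394387 (plus strand), upstream of every exon. For PGK1 it is chrX:78103998-78104173 (plus strand), which lies inside the deposited gene span of chrX:78065188-78129296 and so does not precede every exon.
LDHA: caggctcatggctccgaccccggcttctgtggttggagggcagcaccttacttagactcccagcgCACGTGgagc
PGK1: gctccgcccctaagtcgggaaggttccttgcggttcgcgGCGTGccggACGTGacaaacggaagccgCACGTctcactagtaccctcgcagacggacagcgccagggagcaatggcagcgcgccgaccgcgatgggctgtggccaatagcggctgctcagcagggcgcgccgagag
The LDHA line holds 2 of the 5 matches before its first start, and the PGK1 line holds all 3 of its matches. ENO1, also called, had no such part, since its 250 bases began inside an exon. LDHA was called at 100 µM against 10 µM and PGK1 was not, and a match here is a run of letters, not a bound site.

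Processed pseudogenes bear on these counts because reads from them and from the parent mRNA can be hard to tell apart. The tables listed 97 annotated pseudogenes named after 8 of the 10 genes, 62 of them for GAPDH, 13 for PGAM1, 6 for LDHA, 5 for PKM, 4 each for ENO1 and TPI1, 2 for ALDOA and 1 for PGK1, with 0 for GPI and PFKL. In all, 25 of them held 250 counts. As a share of the counts on genes and pseudogenes together, pseudogenes took 0.222% (95% exact binomial interval 0.0604 to 0.566) and 0.426% (0.116 to 1.09) in the control libraries. The 10 µM libraries stood at 30.0% (17.9 to 44.6) and 14.3% (3.05 to 36.3). The 100 µM libraries stood at 0.340% (0.288 to 0.397) and 0.268% (0.208 to 0.339). The pseudogene counts behind these were 4 and 4, 15 and 3, and 155 and 69. The 10 µM intervals lay above those of the other 4 libraries. All processed pseudogenes of the genome together took 0.346% and 0.741% of nuclear counts in the control libraries, 3.69% and 3.49% at 10 µM, and 0.651% and 0.660% at 100 µM, so the higher share at 10 µM was not limited to these families. With pseudogenes added to the sum, the log2 difference between 100 µM and 10 µM was 3.44 in place of 3.80.

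**Figure D5:**
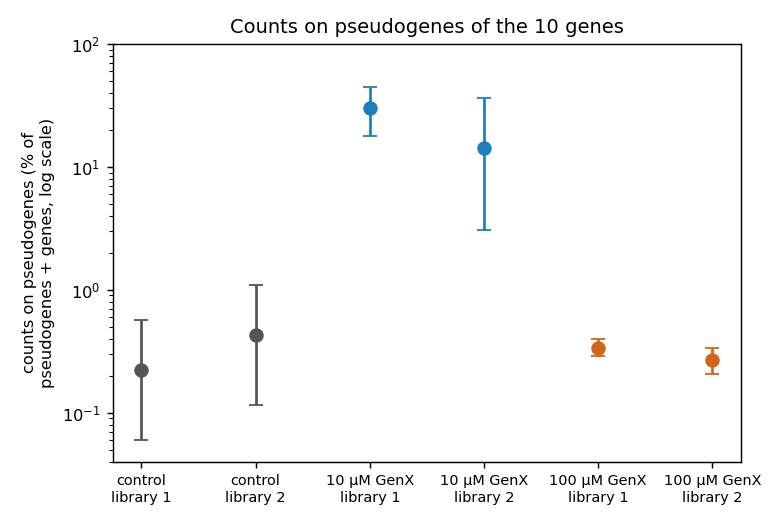
Counts on annotated pseudogenes named after the 10 genes, as a percentage of pseudogene and gene counts together (log axis). Each point is 1 library with its 95% exact binomial interval. The 10 µM libraries lie at 30.0% and 14.3% and the other 4 libraries between 0.222% and 0.426%.

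GAPDHP21, a processed pseudogene of GAPDH (chr10:55667341-55668350, minus strand), had 6 and 2 counts at 10 µM and 0 in the other 4 libraries, beside 3 and 3 counts for GAPDH at 10 µM. It was the only pseudogene named after these genes that was counted in both 10 µM libraries. GENCODE v29 gave its transcript, which aligned to the GAPDH coding sequence over 1002 bases with 87.8% identity. The lines below show coding bases 218 to 307 of GAPDH and the aligned stretch of GAPDHP21, the 90 aligned bases with the most differences, with the 19 differing bases in capitals.
GAPDH: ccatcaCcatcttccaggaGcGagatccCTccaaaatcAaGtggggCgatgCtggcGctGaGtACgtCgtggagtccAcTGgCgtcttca
GAPDHP21: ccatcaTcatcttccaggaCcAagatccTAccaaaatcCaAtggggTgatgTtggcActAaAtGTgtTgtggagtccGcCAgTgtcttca
Reads over such a stretch differ between gene and pseudogene at many bases.

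By exact shared stretches, PGAM1, TPI1 and LDHA were closer to their annotated copies than GAPDH was, and the remaining members were not. Of all stretches of 75 bases in the PGAM1 coding sequence, 100% recurred exactly in an annotated processed pseudogene. The share was 26.8% for TPI1, 8.70% for LDHA, 2.998% for GAPDH, 1.71% for ENO1 and 1.61% for PGK1, and 0% for ALDOA, PKM, GPI and PFKL. How reads with several mapping places were counted is not given in the sources used here, so the level of PGAM1 in particular is uncertain. At 10 µM its pseudogenes PGAM1P5 and PGAM1P8 had 3 counts each in library 1, where PGAM1 had 0. LDHAP5, a pseudogene of LDHA on chromosome 10, had 92 counts in 100 µM library 1 and 0 in library 2, beside 10028 and 4354 counts for LDHA itself. GAPDHP1 on chromosome X had 9 and 20 counts at 100 µM, PKMP3 on chromosome 6 had 0 and 18, ENO1P3 on chromosome 3 had 2 counts in 10 µM library 1, and ALDOAP1 on chromosome 3 had 1 count in 100 µM library 2. Pseudogenes named after PGK1 and TPI1 had 0 counts. Copies under other names share such stretches and were left out of the pseudogene counts. These were AL158201.1 for PGK1, and AC012085.1 and AC078819.1 for PGAM1. Antisense genes that share exon bases with ENO1, GAPDH and ALDOA also had 0 counts in every library.

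Neighbouring steps of sugar metabolism were read from lists of related genes. Of 13 other isoenzymes of the same steps, 2 were tested and 0 passed in any comparison. ENO2, the neuronal enolase, led them with 57 and 49 counts in the control libraries, 0 and 0 at 10 µM, and 1933 and 996 at 100 µM, and LDHB, the subunit that favours pyruvate, had 0 counts in every library. Of 6 hexokinases 3 were tested and 0 passed. HK2, the inducible hexokinase, had 73 and 4 counts in the control libraries, 7 and 1 at 10 µM, and 3281 and 2016 at 100 µM. Of 5 enzymes that set fructose 2,6-bisphosphate, the activator of phosphofructokinase, 3 were tested and 0 passed, and PFKFB4 led with 56 and 24, then 0 and 0, then 485 and 300 counts. ENO2 and PFKFB4 were thus at 0 in both 10 µM libraries, and HK2 was not. In nuclear CPM, HK2 had 317 and 73.4 in the control libraries, 286 and 87.7 at 10 µM, and 1589 and 1558 at 100 µM. In the same order ENO2 had 248 and 899, 0 and 0, then 936 and 770. PFKFB4 had 243 and 440, 0 and 0, then 235 and 232.

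The glucose and lactate carriers together held 959 and 505 counts in the control libraries, 11 and 6 at 10 µM, and 7760 and 5421 at 100 µM. As a share of nuclear counts this was 0.417% and 0.927% in the control libraries and 0.0449% and 0.0526% at 10 µM. At 100 µM it was 0.376% and 0.419%, not above the range of the controls. Of 7 listed, 5 were tested and 0 passed. SLC2A3, a neuronal-type glucose carrier, had 419 and 151 counts in the control libraries, 0 and 4 at 10 µM, and 3058 and 1977 at 100 µM. Of 6 genes of gluconeogenesis 0 could be tested, and G6PC3 had the highest mean level with 7 and 28, 0 and 0, then 0 and 35 counts. Of 12 genes of pyruvate entry into mitochondria 1 was tested and 0 passed, the tested one being PDK1, the kinase that switches off pyruvate dehydrogenase, with 30 and 1, 1 and 0, then 970 and 1190 counts. Of 7 pentose phosphate genes 2 were tested and 0 passed. TALDO1, transaldolase, had 3 and 2, 8 and 1, then 294 and 180 counts. In nuclear CPM, TALDO1 had 13.0 and 36.7, 327 and 87.7, then 142 and 139. SLC2A3 had 1820 and 2771, 0 and 351, then 1481 and 1528. PDK1 had 130 and 18.4, 40.8 and 0, then 470 and 920. G6PC3 had 30.4 and 514, 0 and 0, then 0 and 27.1.

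The genes whose pattern over the 6 libraries was most like that of the members were found among 412 tested protein-coding nuclear genes with a count in every library. Likeness was Pearson's r between log2(nuclear CPM + 1) of a gene and the mean of that value over the 10 members, across 6 libraries that differ 73.0-fold in depth. The highest values belonged to APOA2, an apolipoprotein of high-density lipoprotein (r = 0.988), FN1, fibronectin (0.982), APLP2, a relative of the amyloid precursor protein (0.966), ANGPTL4, an inhibitor of lipoprotein lipase (0.963), and PTMA, prothymosin alpha (0.960). The median r of all 412 genes was 0.036. APOA2, which is secreted by hepatocytes, had 954 and 454 counts in the control libraries, 4 and 2 at 10 µM, and 18293 and 11076 at 100 µM. In nuclear CPM this was 4144 and 8330, 163 and 175, then 8861 and 8560. APOA2 was chosen here for this pattern, so its differences are given as values without a test. MALAT1 and NEAT1, which are not translated, were called lower by edgeR's test at 10 µM than in the control libraries and higher at 100 µM than at 10 µM.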

How the data were processed

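The authors deposited 6 tables of raw read counts per gene, whole numbers, in the layout of featureCounts per the file headers. The submitters' processing notes name GRCh38 and the tools STAR, featureCounts, FastQC and DESeq2. Versions, annotation release, strand setting and the handling of multiply mapped reads are not given in the sources used here. GENCODE v29 gave symbols for 56898 of the 57500 identifiers, and 0 rows named no gene. From the deposited counts edgeR 4.0.16 (R 4.3.3) fitted all 6 libraries in 1 model of 3 group means, with filterByExpr (3180 genes), TMM scaling and robust quasi-likelihood tests, with Benjamini-Hochberg adjustment across every tested gene. DESeq2 1.42.0 was an alternative, and the scripts were tested on simulated data. The SE printed with an edgeR log2 fold change is that change, without its sign, divided by the square root of its F statistic. Shares carry exact binomial intervals (95%), and a count of 0 was limited at 3 counts. All 10 members were named. From each other list, the gene with the highest mean CPM and any that passed were named. The members and lists were chosen with earlier results of these data known. Same-numbered libraries did not deviate together (correlations of 0.000363, 0.00313 and -0.0222), so they were not treated as pairs. DESeq2 without a filter was added after seeing the data.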

Additional observations from a re-analysis of the deposited data

How the results depend on the processing

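The calls and fold changes of the members were recomputed with DESeq2 size factors, library sizes alone, TMM on nuclear genes, DESeq2's Wald test with and without a filter, edgeR without a filter, a minimum mean of 5 CPM, a fit of just the 4 libraries compared, a replicate block, and without each library in turn. The count of members called at 10 µM against control, 0 in the report, was 8 in DESeq2's Wald test (12.1% of all genes called lower). It was 2 with a minimum mean of 5 CPM (0.761%) and 1 of 7 tested with only the 4 libraries compared (29.3%). At 100 µM against control the count was 0 to 1 with a library left out. At 100 µM against 10 µM, 2 in the report, it was 3 in DESeq2's Wald test (5.19% of all genes called higher). With library sizes alone it was 4 (2.14%), and with TMM on nuclear genes 1 (0.259%). With a minimum mean of 5 CPM it was 5 (1.67%), and with just the 4 libraries compared 6 (2.86%). The count was 0 with DESeq2 size factors (0.189%), in DESeq2 without a filter (0.0611%) and in edgeR without a filter (0.0153%). With a replicate block the 3 counts were 2 lower, 0, and 5 higher. Beside them, 1.855% of all genes were called lower, 0.692% in either direction, and 1.73% higher. Since the numbers do not pair the libraries, these are given only as values. The median of all genes at 10 µM against control was -3.17 as reported. It became -2.66 and -2.88 when DESeq2 size factors and library sizes alone replaced TMM, and -1.42 in DESeq2's Wald test. With a minimum mean of 5 CPM it was -0.69. Without a filter it was 0.00 in edgeR and in DESeq2, with 0 members above it in each. It lay between -6.04 and 0.00 with a library left out.

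The summed share was recomputed with all counts as the denominator, without GAPDH, with pseudogenes, without MALAT1 and NEAT1, and without each library. Ranks, likeness, pseudogene shares and the neighbouring lists were not recomputed. With all counts as the denominator, the log2 difference of the summed share was -3.93 at 10 µM against control and 4.85 at 100 µM against 10 µM, and with pseudogenes it was 3.44 in the second of these. Signs of members were stable at 10 µM against control and at 100 µM against 10 µM in every alternative run. At 100 µM against control 5 members changed sign, and none of those 5 was called in any alternative run. PGK1 turned to 0.74 with library sizes alone, 0.0302 with TMM on nuclear genes, 0.49 without a filter, 0.84 with a minimum mean of 5 CPM, 0.12 with just the 4 libraries compared and 0.98 with a replicate block, and ranged from -0.69 to 2.98 with a library left out. ALDOA turned to -0.48 with DESeq2 size factors, -0.48 in DESeq2's Wald test and -0.31 in DESeq2 without a filter, with -0.0605 to 1.41 without a library. PKM turned to -0.0446 with DESeq2 size factors and -0.0520 in DESeq2's Wald test. GPI ranged from -2.04 to 0.69 and PFKL from -0.0816 to 0.74 without a library, and PFKL turned to 0.27 without a filter and 0.62 with a mean of at least 5 CPM. The cause was not tested. PGAM1 and PFKL could not be fitted in 3 of the fits that left out a library, where they failed the filter. Depth at 10 µM, with 53 counts on the 10 genes, limits each comparison that uses those libraries.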
